A study of Mus musculus with 25 samples.

Results

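The genes described here are 10 genes of the smooth muscle contractile apparatus, Acta2, Tagln, Myh11, Cnn1, Myl9, Actg2, Actc1, Lmod1, Tpm2 and Des, chosen by name from 47729 genes in the bulk count table. The choice was made with earlier results of these data known. All 10 passed the filter on low counts that left 15773 genes for testing. The question was whether these genes rose in lung mesenchyme during bleomycin-induced fibrosis, and which cells held their RNA. Lin- lung cells, meaning cells sorted as negative for CD45 (leukocytes), CD31 (endothelium) and CD326 (epithelium), were profiled by bulk RNA-seq in 20 libraries and by single-cell RNA-seq in 5 libraries. Every mouse carried Col1-CreERT2 and Fas fl/fl, so a tamoxifen-inducible Cre was driven by the Col1a1 promoter. Deletion was thus aimed at cells that used that promoter. The 5 bulk groups of 4 libraries were naive mice and mice 3 or 6 weeks after intratracheal bleomycin, given either corn oil (Fas+/+) or tamoxifen (Fas-/-). The genotype and tamoxifen cannot be told apart. Each single-cell library held pooled cells of 4 mice of 1 condition. The labels number the 4 libraries of a group as replicates, and the study's methods count individual animals as replicates.

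Smooth muscle contracts when calcium activates myosin light chain kinase and myosin filaments pull on actin filaments that are anchored to dense bodies and the membrane. Acta2 and Actg2 encode the smooth muscle actins, and Actc1 encodes an actin that is best known from heart. Myh11 encodes the smooth muscle myosin heavy chain and Myl9 a regulatory light chain. Tpm2 (tropomyosin), Cnn1 (calponin), Tagln (transgelin, also called SM22) and Lmod1 (leiomodin, which nucleates actin filaments) sit on or build the thin filament, and Des encodes the intermediate filament desmin. In the lung these genes are used by vascular and airway smooth muscle, partly by pericytes, and Acta2 is the usual marker of the myofibroblast, the contractile fibroblast of scar tissue. The transcription factor SRF, with myocardin (Myocd) or MRTF partners, drives many of them through a short motif called the CArG box.

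A CArG box is a CC and a GG on either side of 6 letters that are each A or T. A CArG-like box was counted where 1 of those 6 letters was G or C, and each promoter was searched on both strands over the 250 bases before the RefSeq start. RefSeq promoters (GRCm38.p6) were matched for 7 of the 10 genes. Of these 7, Myl9 and Actc1 held a CArG box and Acta2 held CArG-like boxes alone. Over 32851 promoters searched, 482 (1.47%) held a CArG box and 2823 (8.59%) held either kind. The windows are printed because these are the motif sites of 3 genes that the results below turn on, with the box in capitals and 10 bases on each side.
Acta2 CArG-like box, 84 to 75 bases before the start, 19:34255438-34255467, minus strand: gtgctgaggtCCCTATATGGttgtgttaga
Acta2 CArG-like box, 34 to 25 bases before the start, 19:34255388-34255417, minus strand: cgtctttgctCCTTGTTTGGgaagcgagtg
Myl9 CArG box, 161 to 152 bases before the start, 2:156775293-156775322, plus strand: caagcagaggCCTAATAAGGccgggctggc
Myl9 CArG-like box, 99 to 90 bases before the start, 2:156775355-156775384, plus strand: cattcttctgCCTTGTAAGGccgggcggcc
Actc1 CArG-like box, 175 to 166 bases before the start, 2:114053031-114053060, minus strand: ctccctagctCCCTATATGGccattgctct
Actc1 CArG box, 47 to 38 bases before the start, 2:114052903-114052932, minus strand: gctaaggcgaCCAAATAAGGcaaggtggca
The box letters of the first Acta2 site and of the first Actc1 site were the same. Actc1 held 2 more CArG-like boxes, ccctccccttCCTTACATGGtctgggagcc and gcccttggctCCAAGAATGGcctcagcggt. A match describes these letters and does not show that SRF bound there.

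In the annotation of the same build (GENCODE), Acta2 lies at 19:34241090-34255590 on the minus strand, 35075 bases from Fas, the gene targeted in these mice. Myh11 lies at 16:14194535-14291372 on the minus strand and Myl9 at 2:156775420-156781658 on the plus strand. Tagln (9:45929619-45936058) overlaps Pcsk7, and Actc1, Lmod1 and Des overlap annotated noncoding or predicted genes. The strand setting of the authors' counting is not given in the sources used here, so reads of overlapping genes may not be separated. The 3 actins are close copies in their coding sequence, with 84.4% identity of Acta2 and Actg2, 82.5% of Acta2 and Actc1, and 84.7% of Actg2 and Actc1. Their longest identical runs of bases were 29, 23 and 38.

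Depth in bulk was between 11819700 and 25189096 counts (median 20122870). Markers of cells that the sort should remove were detected. The summed level of 9 blood endothelial markers (Pecam1, Cdh5 and others) was 172 to 459 CPM (counts scaled by library size) in naive libraries, 2412 to 9093 at 3 weeks in Fas+/+, 694 to 8273 at 3 weeks in Fas-/-, 463 to 1732 at 6 weeks in Fas+/+ and 133 to 2591 at 6 weeks in Fas-/-. All 9 were called higher at 3 weeks in Fas+/+ than in naive mice, beside 22.1% of all tested genes called higher. The highest library of each of the 4 bleomycin groups was left out together in an alternative that is given beside the results it moved. The summed level of immune markers was at most 25.9 CPM in any library. Fas itself had a mean of 22.1 CPM in naive, 41.0 and 44.2 CPM at 3 weeks and 31.4 and 40.4 CPM at 6 weeks in Fas+/+ and Fas-/-, but the counts do not separate the deleted exon, so this does not check the deletion. The paper's own check in single cells found the deleted exon in fewer Fas-/- than Fas+/+ cells at both weeks. Some Fas-/- cells still expressed it, and more of them at 6 than at 3 weeks. The paper also states, with data not shown, that deletion was similar across its clusters.

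In naive libraries Acta2 had the highest level of the 10 genes per kilobase of exon (RPKM). The length was the union of all annotated exons of a gene, not that of a transcript, so the order rests on that choice. Mean RPKM was 748 ± 163 for Acta2, 391 ± 55.4 for Tagln, 338 for Myl9, 184 for Actc1, 170 ± 33.1 for Myh11 and 118 for Des (SD, n = 4 for each). Tpm2 (79.6), Actg2 (75.6), Cnn1 (59.3) and Lmod1 (33.9) were lower. The ranges of the 4 libraries did not overlap between Acta2 and Tagln, Myl9 and Actc1, Des and Tpm2, or Cnn1 and Lmod1. The other neighbours in this order overlapped, so their order is not resolved.

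No contractile gene rose in bulk mesenchyme at 3 weeks. In Fas+/+ mice 5 of 10 fell relative to naive mice, namely Myh11, Actc1, Lmod1, Cnn1 and Myl9, and the other 5 had log2 fold changes below 0 that did not pass the test. The calls here and below use edgeR's quasi-likelihood test over all genes and require an adjusted p of at most 0.05. In this comparison 41.3% of all tested genes were called, 19.2% in the lower direction, so the 50% share among the members is to be read against a high background. The median log2 fold change was -0.68 over the 10 genes and 0.01 over all tested genes. Libraries of the compared groups did not overlap for 6 of the 10, all lower, where 15.5% of all genes were lower without overlap.

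**Figure D1:**
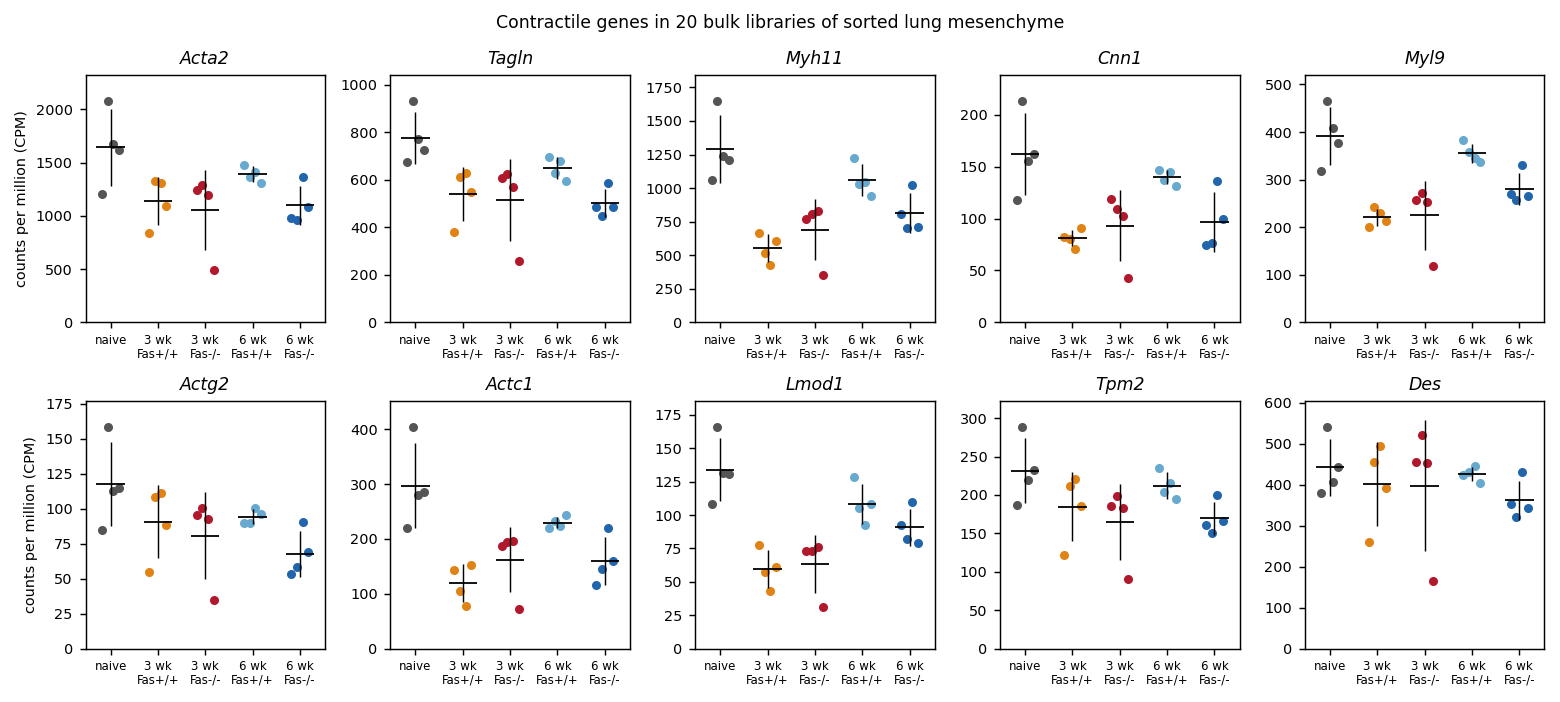
CPM (counts scaled by library size, vertical axis, starting at 0) of each of the 10 contractile genes in 20 bulk libraries of Lin- lung cells, by group. Each point is a library, the horizontal line is the mean of 4 and the vertical line its SD; all points of Myh11 at 3 weeks in Fas+/+ lie below the lowest naive library, and the lowest point of each gene at 3 weeks in Fas-/- is replicate 4.

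Myh11, the smooth muscle myosin, had the smallest adjusted p of the 10. Its level was 1060, 1648, 1238 and 1212 CPM in the 4 naive libraries and 662, 519, 427 and 603 CPM in the 3-week Fas+/+ libraries. Every 3-week library was below every naive one. The log2 fold change was -1.22 ± 0.22 (SE, edgeR adjusted p = 0.000409). Actc1 went from 220, 404, 281 and 286 CPM to 144, 104, 77.5 and 152 CPM, again with no overlap (log2 fold change -1.32 ± 0.28, edgeR adjusted p = 0.00138). Lmod1, the leiomodin of smooth muscle, stood at 108, 166, 132 and 131 CPM in naive and at 77.3, 57.2, 43.3 and 60.8 CPM at 3 weeks (log2 fold change -1.17, edgeR adjusted p = 0.000741). Cnn1 and Myl9 fell by 1.00 and 0.83 on the log2 scale (edgeR adjusted p = 0.00418 and 0.00194).

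Acta2, the myofibroblast marker, did not pass the test in Fas+/+ at 3 weeks. It was at 1202, 2079, 1674 and 1617 CPM in naive and at 843, 1327, 1307 and 1089 CPM at 3 weeks, and the 2 groups overlapped in the lowest naive library. The log2 fold change was -0.53 ± 0.24 (edgeR adjusted p = 0.0846). Tagln gave -0.52 ± 0.21 (adjusted p = 0.0571) with no overlap of the libraries. Actg2 (-0.38), Tpm2 (-0.33) and Des (-0.14, adjusted p = 0.677) were closest to no change. Des stood at 381, 540, 408 and 443 CPM in naive and at 261, 455, 495 and 393 CPM at 3 weeks, so the libraries were interleaved. Tagln was called lower by DESeq2 (-0.52, DESeq2 adjusted p = 0.0395). It was also called by edgeR on the compared groups alone (-0.52, edgeR adjusted p = 0.0422). Without naive replicate 1 Acta2 was called as well (-0.67, adjusted p = 0.0489). Without the 4 libraries highest in endothelial RNA 7 genes were called, with Acta2 at -0.41 (adjusted p = 0.0293) and Tagln at -0.39 (adjusted p = 0.00569) added, and Des was at 0.01. Shares of all genes called in these alternative fits are not given here, so the calls show only that the result moved.

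In Fas-/- mice at 3 weeks 7 of 10 genes were called lower than in naive mice and none higher, beside 14.8% of all tested genes called lower. They were the same 5 as in the main fit of Fas+/+ and, in addition, Acta2 and Tagln. Both of these were also called in Fas+/+ under the alternatives given above, so they do not set the genotypes apart. Both comparisons share the naive libraries, so the values are given side by side and not as independent support. Myh11 was at 772, 805, 828 and 349 CPM (log2 fold change -0.91 ± 0.22, edgeR adjusted p = 0.00535). Lmod1 was at 73.3, 73.4, 76.0 and 31.2 CPM (-1.08 ± 0.23, adjusted p = 0.00207). In both genes the fourth library was below the other 3, which were close to each other. Acta2 was at 1244, 1292, 1197 and 490 CPM (-0.64 ± 0.24, adjusted p = 0.0482), and Tagln gave -0.59 ± 0.21 (adjusted p = 0.0406).

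The calls of Acta2 and Tagln at 3 weeks in Fas-/- were close to the threshold. The fourth library was also the library with the endothelial sum of 8273 CPM, and the part of endothelial RNA in its low contractile levels was not tested. Without this library 5 genes were called, with Acta2 at -0.41 (edgeR adjusted p = 0.0887) and Tagln at -0.38 (adjusted p = 0.0714), and Des turned to 0.09. Leaving out naive replicate 3, naive replicate 4 or 3-week Fas-/- replicate 3 also left 5, again losing Acta2 and Tagln. Without naive replicate 2, the highest naive library for these genes, 3 were called (Myh11, Lmod1 and Myl9). When naive and 3-week Fas-/- libraries alone were fitted, the same 3 were called. The 14.8% of all genes called lower belongs to the main fit, and shares under these alternatives are not given here.

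At 6 weeks the contractile genes of Fas+/+ mice were near the naive level. All 10 log2 fold changes against naive lay between -0.37 (Actc1) and -0.06 (Des), 0 were called by edgeR or DESeq2, 0 had an unadjusted p under 0.05, and 5.31% of all tested genes were called. Myh11 was at 1222, 1027, 1046 and 938 CPM and Acta2 at 1481, 1366, 1417 and 1306 CPM. The spread between libraries was small, with an SD of 74.2 CPM for Acta2 against 359 CPM in naive.

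Between 3 and 6 weeks in Fas+/+ mice the 5 genes that had been called lower rose again, and these 5 of 10 were called, all higher, beside 22.9% of all tested genes called. Both comparisons share the 3-week libraries, so a low value there enters both. The log2 fold change was 0.94 ± 0.22 for Myh11 (edgeR adjusted p = 0.00578), 0.94 for Actc1 (adjusted p = 0.0211), 0.86 for Lmod1 (adjusted p = 0.0113), 0.79 for Cnn1 (adjusted p = 0.0301) and 0.69 for Myl9 (adjusted p = 0.0126). No library of one week overlapped the other in any of these 5 genes, where 12.2% of all genes were higher without overlap. Acta2 (0.29), Tagln (0.26), Tpm2 (0.20), Des (0.09) and Actg2 (0.05) did not pass. Without 3-week Fas+/+ replicate 2 or replicate 3, each in turn, 3 genes were called (Myh11, Myl9 and Lmod1), and without 6-week Fas+/+ replicate 1 or replicate 3 the call of Cnn1 was lost. The 22.9% belongs to the main fit, and shares with single libraries left out are not given here.

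In Fas-/- mice the levels at 6 weeks were below naive in all 10 genes, with a median log2 fold change of -0.61, but edgeR called 0 of 10, beside 6.48% of all tested genes. An unadjusted p under 0.05 was reached by 9 of the 10. That cut is looser than the adjusted one behind the 6.48%, and the share of all genes reaching it is not given here. Actc1 was at 116, 144, 221 and 159 CPM (-0.89 ± 0.28, adjusted p = 0.0642), Myh11 at 810, 706, 1025 and 708 CPM (-0.67 ± 0.22, adjusted p = 0.0834) and Acta2 at 982, 963, 1364 and 1081 CPM (-0.58 ± 0.24, adjusted p = 0.162). Replicate 3 was the highest of the group in each of these. This result moved with the fit. DESeq2 called 5 genes lower, edgeR on the 2 groups alone 6, edgeR without the 4 libraries highest in endothelial RNA 9 (all but Des), and edgeR without 6-week Fas-/- replicate 3 called 2 (Cnn1 and Actc1). The 6.48% belongs to the main fit. Shares of all genes called under these alternatives are not given here, so the counts show only that the result moved. Between 3 and 6 weeks in Fas-/- mice 0 of 10 were called, with 1 gene (Lmod1, 0.52) higher without overlap, beside 9.02% of all tested genes called and 9.33% higher without overlap.

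**Figure D2:**
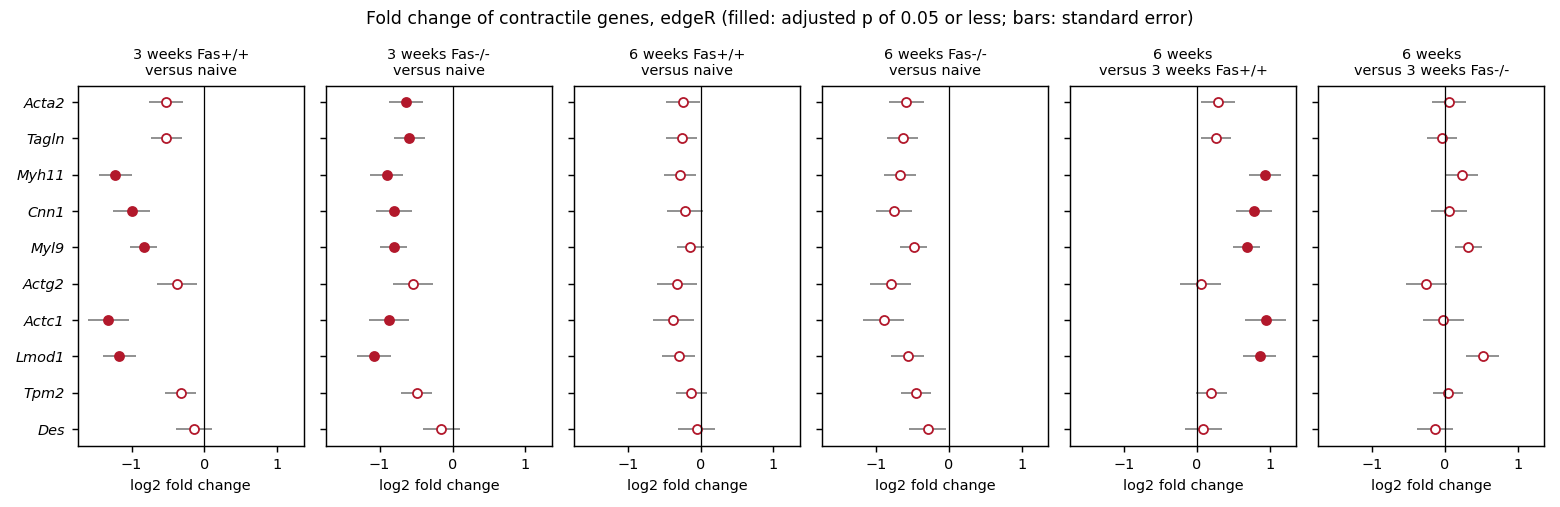
Log2 fold change (horizontal axis) of the 10 contractile genes in 6 comparisons of bulk groups, 4 libraries each, with the standard error as a bar. Filled points passed an adjusted p of 0.05 in edgeR; they number 5 and 7 in the comparisons of 3 weeks with naive, 0 and 0 at 6 weeks, 5 for 6 versus 3 weeks in Fas+/+ and 0 in Fas-/-.

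The direct comparison of Fas-/- with Fas+/+ mice called none of the 10 genes at either week. At 3 weeks the log2 differences ran from -0.17 (Tpm2) to 0.44 (Actc1), 5 of them below 0, and 0.171% of all tested genes were called. At 6 weeks all 10 were below 0, with a median of -0.36, and 0.0507% of all tested genes were called. Cnn1 (-0.54 ± 0.25, edgeR adjusted p = 0.598) was the gene with an unadjusted p under 0.05, a looser cut whose share of all genes is not given here. Cnn1 stood at 147, 137, 145 and 132 CPM in Fas+/+ and at 74.2, 76.9, 136 and 99.4 CPM in Fas-/- libraries. Libraries did not overlap for Tagln (Fas+/+ 597 to 696 CPM, Fas-/- 448 to 586 CPM) and Myl9, 2 of 10, where 3.33% of all genes were lower without overlap. The interaction of genotype and week was largest for Actc1 (-0.97 ± 0.39, adjusted p = 0.546), Cnn1 (-0.73) and Myh11 (-0.70), and 0 of the 10 were called, beside 0.00634% of all tested genes. Actc1 and Myh11 had an unadjusted p under 0.05 for the interaction, again a looser cut whose share of all genes is not given here. Without the 4 libraries highest in endothelial RNA, Myh11 was called higher in Fas-/- at 3 weeks (0.63, adjusted p = 0.0288). The share of all genes called in that fit is not given here.

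The 10 genes did not move by the same amount. The ratio of each gene to Myh11 within a library, a measure chosen after the values were seen and given with no test, separated them. In naive libraries log2 of the Des to Myh11 ratio was -1.54 ± 0.08, at 3 weeks in Fas-/- -0.84 ± 0.20 and at 3 weeks in Fas+/+ -0.48 ± 0.67 (SD, n = 4). Actg2, Tpm2, Tagln and Acta2 also had higher mean ratios at 3 weeks, by 0.34, 0.43, 0.30 and 0.26 in Fas-/- and by 0.83, 0.88, 0.69 and 0.70 in Fas+/+. Myl9 and Cnn1 had mean ratios higher by 0.10 and 0.095 in Fas-/- and by 0.40 and 0.25 in Fas+/+. At 3 weeks Fas+/+ replicate 1, the library with the endothelial sum of 9093 CPM, lay at or near the naive values for Acta2 (0.35, naive 0.18 to 0.44) and Tagln (-0.80, naive -0.82 to -0.65), so the Fas+/+ means rest on the other 3 libraries. Actc1 and Lmod1 stayed within 0.18 of their naive ratio in both. Across the 20 libraries, which share groups and cell makeup, Pearson's r of log2 CPM was 0.98 for Acta2 with Tagln and with Tpm2, 0.98 for Myh11 with Lmod1, 0.95 for Myh11 with Actc1, but 0.54 for Myh11 with Des. These correlations describe the libraries and carry no test.

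Outside the 10 genes, those whose level was most like Myh11 over the 20 libraries were Stum and Adcy5 (r = 0.97 for each), Asb2, Adap1 and Plin4 (0.96 for each). Those most like Acta2 were Map1b (0.92), Id4 and Map1a (0.90 for each), Plekhg3 (0.89) and Carns1 (0.88). The list of each gene held none of the other's.

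Other genes of the contractile machinery are given by role at 3 weeks in Fas+/+ mice, to be read against the 19.2% of all tested genes called lower and 22.1% called higher. These lists were chosen with earlier results of these data known, so the counts are a description and not an unbiased comparison with those shares. Of 12 genes of calcium and potassium handling 7 were lower than in naive and 0 higher, among them Ryr2 (-1.03), a calcium release channel, and Kcnmb1 (-1.02), a subunit of the calcium-activated potassium channel. Of 27 genes of dense bodies, costameres and intermediate filaments 15 were lower, such as Synm (-1.43) and Pgm5 (-1.38), and 4 higher, among them Fhl2 (2.00) and Actn4 (0.64), the nonmuscle actinin. Of 14 genes of myosin and its regulation 7 were lower, including Ppp1r14a (-1.36), an inhibitor of myosin phosphatase, and Mylk (-0.87), the myosin light chain kinase, and 3 higher, including the nonmuscle myosin Myh9 (0.89). Of 13 genes of the thin filament 2 were lower and 4 higher, the latter including the widely used tropomyosins Tpm4 (0.68) and Tpm3 (0.60). Tpm1 (0.41), Cald1 (0.01) and Smtn (-0.17), other thin filament proteins, did not pass. The thin filament counts were near these shares. The median log2 fold changes of these lists were -0.81, -0.46, -0.23 and 0.09, in that order, beside 0.01 over all tested genes.

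Genes of transcription and signalling were called at shares near those of all genes. Of 14 genes of transcription and signalling 4 were higher, including Mrtfb (1.10), an SRF partner, and 3 lower, including Notch3 (-0.86), a receptor of mural cells, and Myocd (-0.73), the SRF partner of differentiated smooth muscle. Srf was at -0.03 and did not pass. Of 14 receptors of contractile agonists 5 were lower, such as Adra1a (-1.99) and Agtr1b (-1.73), and 1 was higher, the serotonin receptor Htr2b (3.74). In Fas-/- at 3 weeks the calcium and potassium list had 8 of 12 lower and the dense body list 11 of 27 lower, beside 14.8% of all tested genes. At 6 weeks in Fas+/+, where 5.31% of all tested genes were called, these 2 lists had 1 lower each and no list had a gene called higher.

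Markers of the cells that use the contractile genes were called in both directions in bulk, to be read against 19.2% of all tested genes called lower and 22.1% higher. In the comparison of 3 weeks in Fas+/+ with naive, 4 of 10 vascular smooth muscle markers were lower and 1 higher, with the summed level at 335 to 480 CPM in naive and 259 to 310 CPM at 3 weeks. Of 11 pericyte markers 8 were lower (2996 to 4306 against 2189 to 2759 CPM), and of 7 markers of Hhip-expressing airway or ductal cells 4 were lower (745 to 1251 against 467 to 754 CPM). Of 10 profibrotic fibroblast markers 8 were higher (12819 to 17908 against 11259 to 57784 CPM). The median sum was 16552 CPM in naive and 48484 CPM at 3 weeks. The lowest 3-week library was below every naive library, so the higher profibrotic sum was not seen in every library of the group. Fewer cells of a type and less RNA per cell cannot be told apart in bulk, and the part of these shifts in the contractile levels was not tested. Erythroid markers were lower in all 6 genes, with 2980 to 9591 CPM in naive and 28 to 90 CPM at 3 weeks.

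Single-cell data placed the RNA. Of 13900 barcodes, 12059 cells were kept, with 603 from naive, 2664 and 2608 from 3 weeks and 3240 and 2944 from 6 weeks in Fas+/+ and Fas-/-. Median UMIs per cell, the count of distinct RNA molecules read, ran from 5768 to 8896. Cells were grouped into 22 clusters without using the 10 genes or the other contractile lists. Clusters were named from marker lists that held none of them. The smooth muscle markers Itih4 and Lgr6 are, however, listed in the paper for its smooth muscle cluster of these same libraries. That list also holds Acta2, Actc1, Myh11, Cnn1 and Lmod1, so the name of this class is not independent of the genes described. Libraries shared cell barcodes. In all, 1502 cells (12.5%) carried a barcode seen in another library, including 344 of the 603 naive cells (57.0%), and the naive cell had a median of 10.7 to 23.2 times the UMIs of its namesake in another library. The 959 shallower copies had a median of 756 UMIs, against 8138 for the other cells. The levels of the smooth muscle-like, profibrotic, Hhip and pericyte-like classes and of all cells are also given without those copies. With 1 library per condition there is no test between conditions, and intervals cover counting error only.

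The 10 genes were highest in vascular smooth muscle-like cells (588 cells, named from Itih4, Map3k7cl and others) in each of the 5 libraries. Over all libraries Acta2 was at 19765 CPM (UMIs scaled by the total of the class) there, 2793 in pericyte-like, 1941 in Hhip airway or ductal-like, 1075 in profibrotic fibroblast-like, 107 in alveolar lipofibroblast-like and 60.4 in blood endothelial-like cells. Myh11 fell off more steeply, at 3561, 495, 208, 6.73, 8.17 and 9.12 CPM in the same order. Unnamed cluster 15 (296 shallow cells with endothelial markers, kept out of the endothelial class) held Acta2 at 194 and Myh11 at 15.5 CPM, from 16 Myh11 UMIs. In profibrotic fibroblast-like cells Acta2 was thus well above the level in blood endothelial-like cells and Myh11 was below it. Cnn1 (1406 CPM in smooth muscle-like cells, 8.92 in profibrotic), Actc1 (3147 and 3.04) and Lmod1 (816 and 6.14) also fell off steeply. Myl9 (3919 and 134) and Actg2 (1408 and 64.1) were between Acta2 and Myh11 in this fall-off. Tagln (13445 and 1148), Tpm2 (4440 and 334) and Des (2730 and 394) differed less between these classes than Acta2 did. Cnn1, Lmod1 and Actc1 differed in their place relative to blood endothelial-like cells. At 6 weeks in Fas+/+ profibrotic cells held 5.81% of Cnn1, 4.37% of Lmod1 and 0.525% of Actc1 UMIs. Blood endothelial-like cells held 1.07%, 0.519% and 0.830%. The 2 classes held 19.5% and 18.4% of all UMIs of that library. At a finer clustering (resolution 1.6) a shallow unnamed cluster of 134 cells had 8 of 10 smooth muscle markers higher. Its top 10 genes included Tnnt2, Myl4 and Myh6, which are genes of striated muscle. The part of such cells in the smooth muscle-like class, and in its Actc1 level, was not tested. At this resolution 2 of the 10 genes stayed highest in smooth muscle-like cells in every library.

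**Figure D3:**
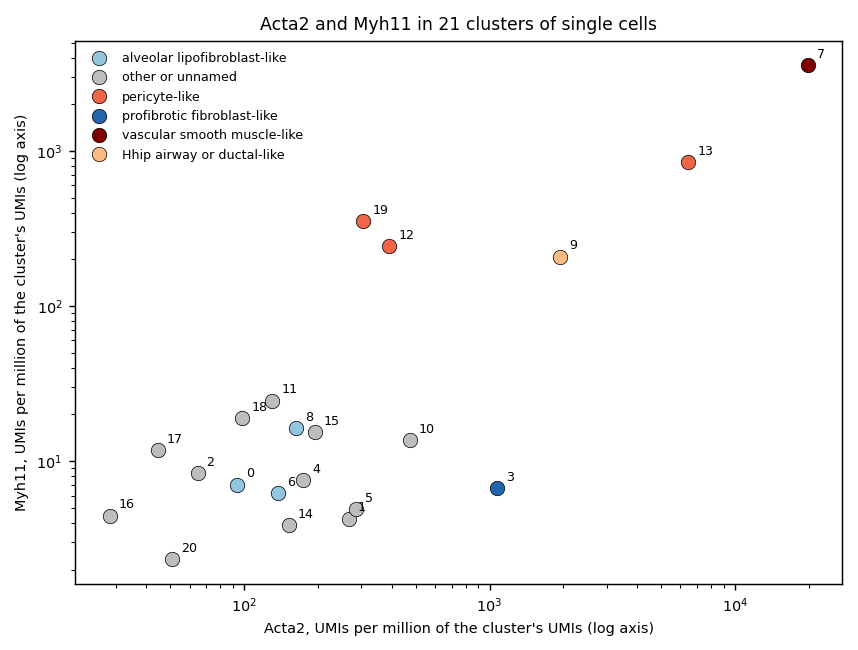
Acta2 (horizontal) against Myh11 (vertical), both as CPM of a cluster's UMIs on log axes, for the clusters of single cells with at least 1 Myh11 UMI, numbered and coloured by class. Smooth muscle-like cluster 7 lies at the top right, pericyte-like clusters 12 and 19 hold Myh11 of 242 and 352 with Acta2 of 390 and 305, and profibrotic cluster 3 holds Acta2 of 1075 with Myh11 of 6.73.

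Single cells showed the same split. Each cell was thinned to 3000 UMIs, and shallower cells were left out, so that shares could be compared across depths. Of 453 smooth muscle-like cells 99.6% had an Acta2 UMI and 98.5% a Myh11 UMI, and the median cell held 10 of the 10 genes. Of 812 profibrotic fibroblast-like cells 49.3% (95% interval 45.8 to 52.8) had Acta2 and 1.97% (1.13 to 3.18) had Myh11, with a median of 2 genes. In 1290 blood endothelial-like cells, which should lack both, the shares were 17.1% (15.1 to 19.3) and 2.56% (1.77 to 3.57). Unthinned median depths of the 2 classes were 17305 and 5465 UMIs, and unthinned shares with Acta2 were 75.8% and 30.4%. Over the libraries together, Acta2 in profibrotic fibroblast-like cells was therefore above the level in cells that should lack it. Myh11 was at that level and is read as background. Alveolar lipofibroblast-like cells had Acta2 in 19.6%, close to the endothelial share. Of the 400 profibrotic cells with Acta2, 11 (2.75%, exact interval 1.38 to 4.87) also had Myh11. That share was 98.7% in smooth muscle-like, 67.4% in pericyte-like and 36.6% in Hhip airway or ductal-like cells.

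Within smooth muscle-like cells all levels but Cnn1 at 3 weeks in Fas-/- stayed within 1.5-fold of naive, but most were below it. The median ratio to naive over the 10 genes was 0.918, 0.814, 0.818 and 0.844, in the library order of the Acta2 values below. It was 0.991, 0.989, 1.03 and 1.03 over all genes with 100 or more UMIs. The ratio's interval lay below 1 for 6, 7, 8 and 6 of the 10 and above 1 for 2, 1, 0 and 0. These intervals cover counting error of single libraries, and the share of all genes with such intervals is not given here. Acta2 was at 24344 CPM in naive, 20121 and 18303 CPM at 3 weeks and 19699 and 19142 CPM at 6 weeks in Fas+/+ and Fas-/-. Myh11 was at 3603, 3581, 3333, 3430 and 3755 CPM in the same order. Against naive, 0 of 10 genes were at least 1.5-fold lower at 3 weeks in Fas+/+, where 5.30% of genes with 100 or more UMIs were, and 1 of 10 (Cnn1) in Fas-/-, where 7.10% were. None was 1.5-fold higher than naive in any of the 4 bleomycin libraries, where 6.32%, 6.36%, 10.2% and 12.1% of genes were. Lmod1 stood at 905, 896, 966, 782 and 679 CPM and Actc1 at 3662, 2836, 2804, 2784 and 3743 CPM, so these genes too stayed within 1.5-fold of naive. Without the shallower barcode copies Acta2 was at 24344, 20055, 18080, 19619 and 19002 CPM.

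In all cells of a library together most levels were lower after bleomycin than in naive, the exception being Des at 6 weeks in Fas-/- (357 CPM, against 350.1 in naive). Acta2 was at 1899 CPM in naive and at 1248, 1142, 1328 and 1448 CPM in 3-week Fas+/+, 3-week Fas-/-, 6-week Fas+/+ and 6-week Fas-/- libraries. Of the 10 genes, 5, 6, 5 and 3 were at least 1.5-fold lower than naive, and none was 1.5-fold higher. Over all genes with 100 or more UMIs, 3.89%, 6.12%, 10.2% and 10.6% were 1.5-fold lower and 7.25%, 6.15%, 15.4% and 10.8% higher. Smooth muscle-like cells were 5.47% of naive cells and 5.07%, 5.29%, 3.24% and 6.01% of the other libraries, and pericyte-like cells 14.3% of naive and 7.96%, 6.79%, 5.77% and 8.87% of the others. The order at 6 weeks differed from bulk. Acta2 and Myh11 were higher in the Fas-/- library (1448 and 205 CPM) than in Fas+/+ (1328 and 149 CPM), whereas in bulk Fas-/- was below Fas+/+ in all 10 genes without a call, and the single-cell Fas+/+ library had 5 genes 1.5-fold below naive where bulk called 0. Without the shallower barcode copies Acta2 was at 1900, 1242, 1124, 1322 and 1438 CPM. The sort and the endothelial share (1.49% of naive cells and 27.8% of 6-week Fas+/+ cells) can set these shares, and their part in the levels was not tested.

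**Figure D4:**
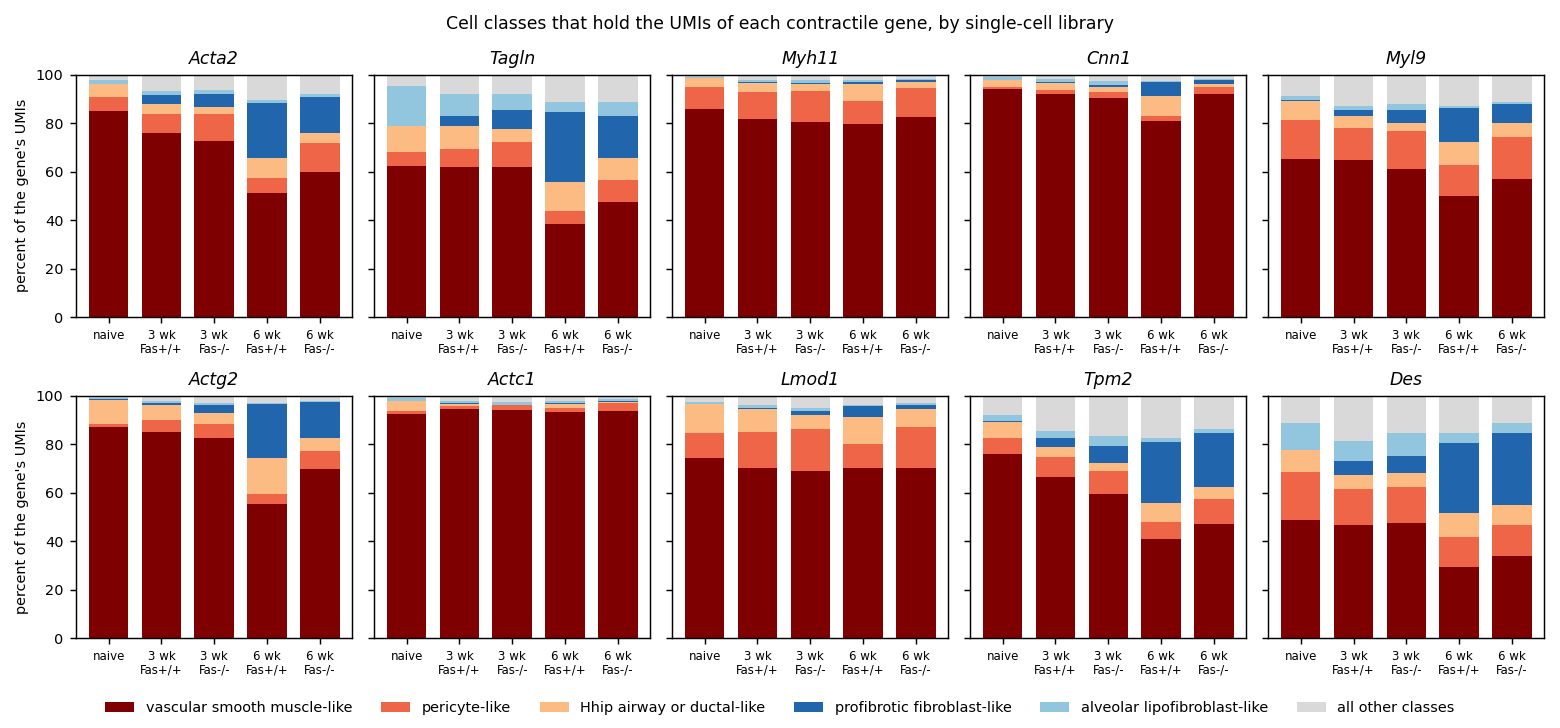
Percent of each contractile gene's UMIs (vertical axis, 0 to 100) held by each cell class, for the 5 single-cell libraries. The smooth muscle-like part of Acta2 goes from 85.0% in naive to 51.3% at 6 weeks in Fas+/+, where the profibrotic part is 22.8%, whereas Myh11 and Actc1 stay mostly in smooth muscle-like cells in every library.

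The source of the RNA differed between libraries. Smooth muscle-like cells held 85.0% of Acta2 UMIs in naive, 76.1% and 72.6% at 3 weeks, and 51.3% and 59.7% at 6 weeks in Fas+/+ and Fas-/-. Profibrotic fibroblast-like cells held 0.075%, 3.54%, 5.46%, 22.8% and 14.9%. For Tagln the profibrotic share reached 28.7% at 6 weeks in Fas+/+, against 38.4% in smooth muscle-like cells. Alveolar lipofibroblast-like cells held 16.4% of Tagln UMIs in naive and 4.05% at 6 weeks in Fas+/+. Their Tagln level was 880 CPM in naive, 464 and 283 CPM at 3 weeks and 455 and 520 CPM at 6 weeks in Fas+/+ and Fas-/-. For Myh11 the smooth muscle-like share was 79.5% to 85.6% in every library and the profibrotic share at most 1.05%. The shares follow the number of cells and their depth as well as the level per cell, since profibrotic fibroblast-like cells were 1.66% of naive cells, 4.28% and 8.32% at 3 weeks and 7.62% and 11.0% at 6 weeks. Without the shallower barcode copies they were 0.338% of naive cells and 4.29%, 8.28%, 7.91% and 12.7% of the others, and the smooth muscle-like share of Acta2 UMIs was 85.1%, 75.9%, 72.2%, 51.0% and 59.1%.

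Within profibrotic fibroblast-like cells the level of several genes was higher at 6 than at 3 weeks in Fas+/+. Acta2 was at 722 CPM at 3 weeks and 1556 CPM at 6 weeks (ratio 2.15, exact interval 2.03 to 2.29), and Tagln at 732 and 1730 CPM (ratio 2.36, interval 2.23 to 2.51). Des, Tpm2 and Myl9 had ratios of 1.67, 1.63 and 1.62. Actg2 had 15 and 635 UMIs (ratio 10.2, interval 6.14 to 18.3) and Cnn1 4 and 114 UMIs (ratio 6.87, interval 2.61 to 25.6), so both rest on few UMIs at 3 weeks. Myh11 had 11 and 55 UMIs (ratio 1.20, interval 0.624 to 2.55). In Fas-/- the 6-week to 3-week ratio was 1.42 for Acta2 (601 and 857 CPM), 1.15 for Tagln and 2.27 for Des, while Myl9 was lower at 6 weeks (ratio 0.697, interval 0.602 to 0.809).

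The higher level of Acta2 at 6 weeks in Fas+/+ was not particular to the profibrotic class. Its 6-week to 3-week ratio was 2.60 (interval 2.34 to 2.90) in inflammatory fibroblast-like cells, which went from 162 to 421 CPM, and 2.55 (2.35 to 2.77) in unnamed cluster 1, from 188 to 481 CPM. It was 1.83 in alveolar lipofibroblast-like and 1.49 in Col14a1 adventitial fibroblast-like cells. These classes stayed below the level of profibrotic fibroblast-like cells. For Tagln the ratio was 3.53 in unnamed cluster 1, 2.13 in Col14a1 adventitial, 1.28 in inflammatory and 0.981 in alveolar lipofibroblast-like cells. In smooth muscle-like cells the Acta2 ratio was 0.979.

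At 6 weeks the profibrotic fibroblast-like cells of the Fas-/- library held less of most contractile genes than those of Fas+/+. Acta2 was at 857 and 1556 CPM (ratio 0.551, interval 0.534 to 0.567), Tagln at 848 and 1730 CPM (0.490, interval 0.476 to 0.505), Cnn1 at 4.83 and 16.7 CPM and Myl9 at 92.9 and 189 CPM. Des differed less (424 and 441 CPM, ratio 0.961, interval 0.916 to 1.01). Myh11 was low in both libraries and was also lower in Fas-/-, from 45 UMIs there and 55 in Fas+/+ without the shallower copies. Of 8 contractile genes with enough UMIs, 6 were at least 1.5-fold lower in Fas-/- and 0 higher. The 6 were Acta2, Tagln, Cnn1, Myl9, Actg2 and Myh11, the last from few UMIs and read above as background over the libraries together. Of all genes with enough UMIs, 2.82% were lower by that much. At 6 weeks in Fas+/+ profibrotic fibroblast-like cells held 1.05% of the library's Myh11 UMIs and 19.5% of all its UMIs. Blood endothelial-like cells held 0.766% and 18.4%, so the profibrotic Myh11 level was the higher of the 2 in that library. This difference rests on few Myh11 UMIs and its interval is not given. At 3 weeks Acta2 was at 601 in Fas-/- and 722 CPM in Fas+/+ (ratio 0.833, interval 0.766 to 0.905). The Tagln interval included equal levels (0.929 to 1.09), and Des was lower in Fas-/- (ratio 0.707). The naive library held 10 such cells, 2 of them without the shallower copies, too few for a level. Leaving out the copies left Acta2 at 722, 585, 1556 and 857 CPM in the 4 bleomycin libraries. After thinning, Acta2 was detected in 47.7% and 37.8% of cells at 3 weeks and in 64.1% (57.5 to 70.4) and 45.1% (39.5 to 50.8) at 6 weeks in Fas+/+ and Fas-/-.

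**Figure D5:**
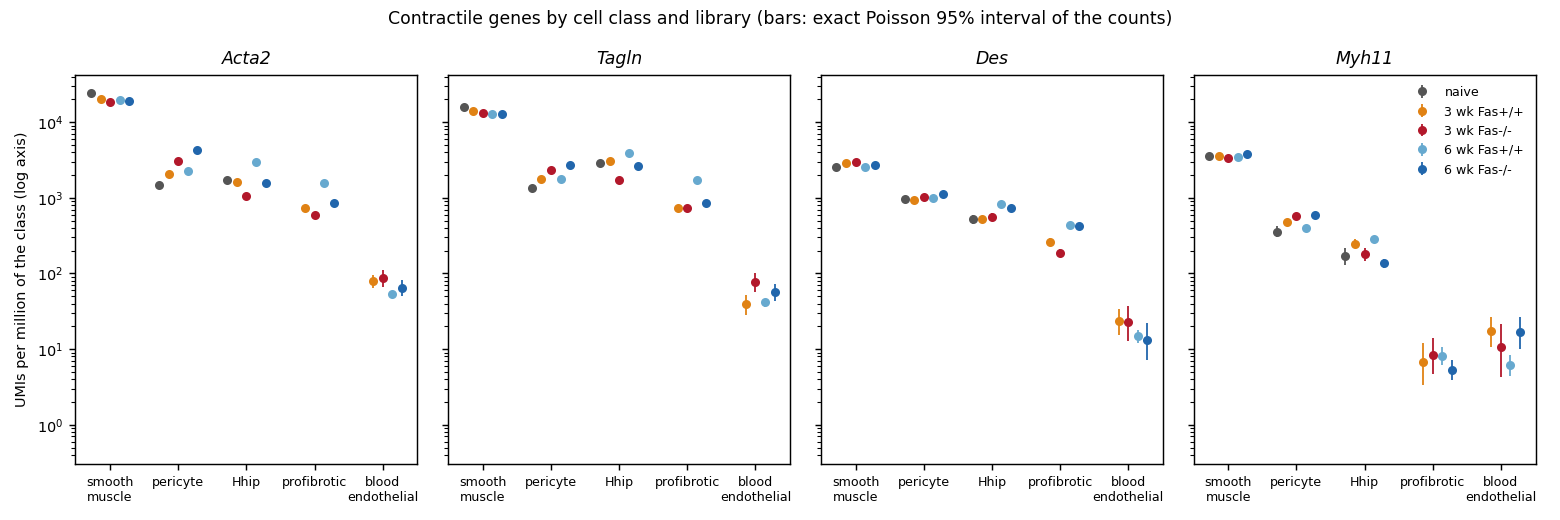
CPM of UMIs (log axis) of Acta2, Tagln, Des and Myh11 in 5 cell classes, 1 point per single-cell library with at least 20 cells of the class and a UMI of the gene, with exact Poisson 95% intervals of the counts. Smooth muscle-like cells lie within 1.5-fold of their naive level in all libraries, and profibrotic cells hold Acta2 of 601 to 1556. Myh11 of profibrotic cells is near the endothelial points, and at 6 weeks in Fas+/+ it is above the endothelial point of that library.

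Hhip airway or ductal-like cells also held their highest Acta2 level at 6 weeks in Fas+/+. Acta2 was at 1708 CPM in naive, 1612 and 1056 CPM at 3 weeks and 3002 and 1577 CPM at 6 weeks in Fas+/+ and Fas-/-. At 6 weeks in Fas+/+ the ratio to naive was 1.76 for Acta2 (interval 1.61 to 1.92), 1.67 for Myh11 and 1.61 for Des, while Actc1 was lower than naive (ratio 0.258, interval 0.177 to 0.374). At 6 weeks the Fas-/- to Fas+/+ ratio was 0.525 for Acta2 (interval 0.498 to 0.554), 0.665 for Tagln, 0.480 for Myh11 and 0.872 for Des. Without the shallower copies Acta2 stood at 3003 and 1569 CPM at 6 weeks.

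Pericyte-like cells held more Acta2 in every bleomycin library than in naive, as did other classes. Ratios to naive in Fas+/+ and Fas-/- were 1.47 and 1.16 at 3 weeks and 3.76 and 2.43 at 6 weeks in unnamed cluster 1. In the same order they were 1.45, 1.01, 2.16 and 2.29 in Col14a1 adventitial and 1.18, 1.20, 2.15 and 1.32 in alveolar lipofibroblast-like cells. The 3-week Fas-/- intervals of these classes included 1, as did the 3-week Fas+/+ interval of alveolar lipofibroblast-like cells (0.972 to 1.43). Mesothelial-like cells had ratios above 1, from 11 naive UMIs. All smooth muscle-like ratios were below 1. In pericyte-like cells Acta2 was at 1480 CPM in naive, 2059 and 3043 CPM at 3 weeks and 2235 and 4222 CPM at 6 weeks in Fas+/+ and Fas-/-. The ratio to naive was 2.85 (interval 2.62 to 3.11) at 6 weeks in Fas-/- and 1.39 to 2.06 in the others. Tagln was at 1361 CPM in naive and 1749 to 2711 CPM after bleomycin, and Myh11 at 358 CPM in naive and 400.4 to 595 CPM after bleomycin. Actg2 was at 17.4 CPM in naive, from 7 UMIs, and at 81.7 to 191 CPM in the others. Des differed little, at 930 to 1115 CPM. Without the shallower copies Acta2 was at 1480, 2067, 3046, 2231 and 4258 CPM. Here, unlike in profibrotic and Hhip cells, Acta2 was higher in Fas-/- than in Fas+/+ at 6 weeks (ratio 1.89, interval 1.81 to 1.98).

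The class held 3 clusters, and they differed in Acta2 more than the libraries did. Cluster 13 (334 cells, led by Rgs5) held Acta2 at 6450 CPM and Myh11 at 849 CPM, against 390 and 242 CPM in cluster 12 and 305 and 352 CPM in cluster 19. It made up 21 of 86 naive pericyte-like cells, 65 of 212 and 75 of 177 at 3 weeks, and 76 of 187 and 97 of 261 at 6 weeks, so the makeup of the class differed between libraries, and its part in the Acta2 level of the class was not tested. Within cluster 13 Acta2 was at 5467 CPM in naive, 5647 and 5885 CPM at 3 weeks, and 4642 and 9197 CPM at 6 weeks in Fas+/+ and Fas-/-. Without the shallower copies the 6-week levels were 4679 and 9454 CPM. Myh11 was at 894, 941, 930, 634 and 940 CPM in the same order of libraries.

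Known regulators of the contractile genes differed in the classes that held them. Myocd was at 114 CPM in smooth muscle-like, 9.84 in pericyte-like, 3.95 in profibrotic fibroblast-like and 0.155 CPM in alveolar lipofibroblast-like cells. Srf was spread more evenly, at 77.2 CPM in smooth muscle-like, 39.1 in pericyte-like, 45.1 in profibrotic fibroblast-like and 41.1 CPM in alveolar lipofibroblast-like cells. Notch3 was highest in pericyte-like cells (955 CPM, against 267 in smooth muscle-like cells). Mylk was at 1598 CPM in smooth muscle-like and at 1059 CPM in alveolar lipofibroblast-like cells, so it did not mark contractile classes alone. Nonmuscle Myh9 was at 576 CPM in pericyte-like, 347 in profibrotic and 165 CPM in smooth muscle-like cells. Of the fixed lists, the smooth muscle-like class was the highest for 21 of 27 dense body genes, 9 of 12 calcium and potassium genes, 7 of 14 myosin genes, 7 of 13 thin filament genes, 3 of 14 transcription genes and 0 of 14 receptors. These counts pool the libraries at the main clustering, and the share of all genes highest in this class is not given here. Counts at the finer clustering, where fewer contractile genes stayed highest in this class in every library, are not given either.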

How the data were processed

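Lin- lung cells were measured in 20 bulk and 5 single-cell libraries. The bulk table holds raw counts per Ensembl gene that the authors made with HTSeq from HISAT2 alignments (GRCm38) after trimming with skewer. For single cells the authors deposited UMI counts from Cell Ranger 3.0.2. The deposited normalized table was not used. Groups were taken from the labels. The members and the gene lists were chosen with earlier results of these data known.

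Bulk counts were fitted with edgeR 4.0.16 (R 4.3.3), filterByExpr, TMM and the quasi-likelihood test over all 5 groups, with Benjamini-Hochberg adjustment over 15773 genes. RPKM and log2 CPM (prior count 2) were computed for description. DESeq2 1.42.0, RLE scaling, no filter, the compared groups alone, a replicate block, single libraries left out and the 4 endothelial-high libraries left out were alternatives. On simulated data 63.6% of log2 changes of 1 and 5.10% of changes of 0.5 were recovered at 3 weeks in Fas+/+ against naive, with 6.85% false calls, so small changes were rarely detectable. Same-numbered libraries correlated above 0.1 in 14 of 40 pairs, so the numbers were not treated as pairing.

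The cell filter was 200 to 7500 genes and a mitochondrial share of up to 20%. Cells were normalized with SCTransform and integrated with Seurat 5.3.0 (20 components, 2931 features), and clustered at resolution 0.8. Clusters were named where at least 3 markers were higher and their mean log2 ratio was at least 0.5, and stayed unnamed where another list had more markers among the top 10 genes, or where depth was under 0.333 of the library's median with no own marker among those genes (clusters 15 and 21). Levels are summed UMIs scaled to CPM with exact Poisson, and shares with Clopper-Pearson, 95% intervals (scipy 1.17.1). Counts of genes 1.5-fold apart, and medians over all genes, used genes with at least 100 UMIs summed over the 2 libraries. Ratios of single members, and their medians, were given without this minimum. Scrublet in scanpy 1.11.5 called 0.113% to 0.882% of cells per library, too few to have worked, so doublets were kept. Genes named beyond the members were, per list, the 2 called genes with the largest rise and fall at 3 weeks in Fas+/+ against naive, 8 named whatever their values (Myocd, Srf, Tpm1, Mylk, Smtn, Cald1, Myh9 and Notch3), and the 5 most like Acta2 and Myh11.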

Additional observations from a re-analysis of the deposited data

Results flagged for a closer look

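Replicate 4 of the 3-week Fas-/- bulk group stood far below the other 3 libraries of its group in 8 of the 10 contractile genes, by the gap between it and its nearest neighbour relative to the range of the group (Dixon's test at 95%). Its levels were 489.6 CPM for Acta2, 256.9 CPM for Tagln, 349.2 CPM for Myh11, 117.6 CPM for Myl9, 34.7 CPM for Actg2, 72.6 CPM for Actc1, 31.2 CPM for Lmod1 and 90.9 CPM for Tpm2. In all, 50 gene and group combinations were tested, and chance alone marks about 1 in 20. The 8 marks fell on 1 library, so they are not independent of each other. That library had a summed level of 8273 CPM of blood endothelial markers, and the part of this in its low contractile levels was not tested.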

How the results depend on the processing

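Counts of called contractile genes changed by more than 1.5 times in these cases, and the cause was not tested. Shares of all genes called under the alternatives are not given here. At 3 weeks in Fas-/- against naive, 7 were called, and 3 with the compared groups alone. At 6 weeks in Fas-/- against naive, 0 were called, 5 by DESeq2, 6 with the compared groups alone and 9 without the 4 libraries highest in endothelial RNA. Without these 4 libraries, 1 was called between genotypes at 3 weeks. With single libraries left out, the counts were 3 to 7 at 3 weeks in Fas-/-, 0 to 2 at 6 weeks in Fas-/- and 3 to 5 for 6 against 3 weeks in Fas+/+. At a clustering resolution of 1.6, 2 of 10 genes, in place of 10, were highest in smooth muscle-like cells in every library.

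Uncalled log2 differences near 0 changed sign. Without the 4 libraries, Des was at 0.0099 and 0.091 at 3 weeks in Fas+/+ and Fas-/- against naive, Tagln at 0.0058 and Des at 0.081 between genotypes at 3 weeks, Actg2 at -0.10 and Des at -0.074 for 6 against 3 weeks in Fas+/+, and Acta2 at -0.12, Cnn1 at -0.086 and Tpm2 at -0.10 in Fas-/-. With single libraries left out, Des ranged from -0.26 to 0.011, -0.32 to 0.092 and -0.13 to 0.054 against naive at 3 weeks in Fas+/+, 3 weeks in Fas-/- and 6 weeks in Fas+/+. Between genotypes at 3 weeks Acta2 ranged from -0.23 to 0.13, Tagln from -0.21 to 0.15, Myl9 from -0.073 to 0.24, Actg2 from -0.35 to 0.087, Lmod1 from -0.035 to 0.32, Tpm2 from -0.32 to 0.037 and Des from -0.17 to 0.25. For 6 against 3 weeks in Fas+/+, Actg2 ranged from -0.12 to 0.17 and Des from -0.070 to 0.21. In Fas-/- Acta2 ranged from -0.18 to 0.17, Tagln from -0.26 to 0.071, Cnn1 from -0.18 to 0.19, Actc1 from -0.26 to 0.11, Tpm2 from -0.16 to 0.15 and Des from -0.39 to 0.025.

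With the replicate number as a block, 5 and 7 genes were called at 3 weeks and 5 for 6 against 3 weeks in Fas+/+, as without it, and Myl9 between genotypes at 3 weeks was at -0.0021. Of the 20 libraries 7 correlated best with a library of their own number, so the numbers were not read as pairing. Single-cell contrasts rest on 1 library per condition, and no replicate error is available for them.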
